A study of Mus musculus with 70 samples.

Results

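The contractile genes described here took up 1.98% to 2.54% of the summed expression of untreated mouse embryonic fibroblasts (MEFs). The set holds 10 of the 21859 genes measured, chosen by gene symbol: the actins Acta2, Actg2 and Acta1, the myosin chains Myh11 and Myl9, the tropomyosins Tpm1 and Tpm2, and the thin-filament proteins Cnn1, Cnn2 and Tagln. Each symbol matched 1 entry of the expression table.

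The study compared oncogene-induced with stress-induced senescence by RNA sequencing of 70 libraries in 26 groups from male C57BL/6 mice. Of these, 8 groups with 3 libraries each were MEFs derived at embryonic day 13.5 from eviscerated and decapitated embryos. Cells of the genotype caMEK1 carried an inducible active MEK1 (a Xenopus sequence in the table) and cells of the genotype caMKK6 an inducible active MKK6 (a human sequence). Both genotypes were grown with 2 µg/mL doxycycline for 2, 4 or 7 days, and without it to day 2. No MEFs of the Control genotype were among the groups, so within a genotype the kinase and doxycycline itself cannot be told apart at any day. Untreated MEFs were sequenced at day 2 and were passaged during culture, so at days 4 and 7 time in culture cannot be told apart from them either. The other 18 groups, of 2 or 3 libraries each, were sorted hepatocyte preparations of the liver and sorted crypt cells of the colon from caMEK1, caMKK6 and Control mice. The groups were mCherry cells of mice on doxycycline, GFP cells of mice on doxycycline and GFP cells of mice without it. The mice were chimeras of mCherry cells, which can carry the kinase, and surrounding GFP cells, and doxycycline ran for 7 days. Drinking water of caMEK1 animals held 0.2 mg/mL doxycycline, and that of the other genotypes 2 mg/mL, so in the tissues kinase and dose differ together. The labels do not say whether the MEF replicates were separate cultures, and if they were not, p-values measure technical spread. Sorted libraries are bulk samples, in which fewer cells of a type and less RNA per cell cannot be told apart.

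Contractile genes of smooth muscle encode the actin filament, the myosin that pulls on it and the proteins that decorate it. Many of them are switched on by serum response factor (SRF), which binds CArG boxes and works with the cofactors myocardin, MRTF-A and MRTF-B. MRTF proteins are held in the cytoplasm by unpolymerised actin, so assembly of actin into filaments raises these genes. Cultured fibroblasts use the same set when they take on a myofibroblast character, for which Acta2 is the usual marker.

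Promoter sequence from RefSeq (GRCm38.p6) was at hand for 7 of the 10 genes, and Tagln, Actg2 and Myh11 had no window. A CArG box (the letters CC, 6 of A or T, then GG, which reads the same on both strands) occurred in the windows of Acta1, Cnn2 and Myl9, that is in 3 of 7 windows, against 1.63% of 32851 windows of the same length (250 bases before to 50 after the start). A box with 1 G or C among the 6 core letters occurred in Acta1, Acta2 and Myl9, against 8.5% of all windows. The windows of Cnn1, Tpm1 and Tpm2 held neither. GGAATG, the core letters bound by TEAD factors, occurred on either strand in Acta1, Acta2 and Tpm1, against 14.7% of all windows. A match is a description of letters, and binding was not measured. The 250 bases before the annotated start of the 4 genes with a box of either kind follow, 5′ to 3′ on the gene's strand, with both kinds of CArG box in capitals.
Acta2, chr19:34255374-34255623, minus strand: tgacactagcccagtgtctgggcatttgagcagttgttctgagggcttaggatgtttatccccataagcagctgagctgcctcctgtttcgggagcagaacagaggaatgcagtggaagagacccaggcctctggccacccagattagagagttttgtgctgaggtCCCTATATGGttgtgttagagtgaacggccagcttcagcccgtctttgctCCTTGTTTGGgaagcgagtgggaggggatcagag
Acta1, chr8:123894776-123895025, minus strand: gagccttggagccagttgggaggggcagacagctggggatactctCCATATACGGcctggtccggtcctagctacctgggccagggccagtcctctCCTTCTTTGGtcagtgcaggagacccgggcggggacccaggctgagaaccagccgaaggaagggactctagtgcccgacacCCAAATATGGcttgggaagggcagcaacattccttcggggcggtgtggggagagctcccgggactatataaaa
Myl9, chr2:156775214-156775463, plus strand: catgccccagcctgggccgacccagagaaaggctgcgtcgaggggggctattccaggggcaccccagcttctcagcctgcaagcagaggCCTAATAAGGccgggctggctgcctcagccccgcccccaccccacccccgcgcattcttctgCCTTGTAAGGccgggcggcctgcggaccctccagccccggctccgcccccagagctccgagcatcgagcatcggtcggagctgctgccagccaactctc
Cnn2, chr10:79988350-79988599, plus strand: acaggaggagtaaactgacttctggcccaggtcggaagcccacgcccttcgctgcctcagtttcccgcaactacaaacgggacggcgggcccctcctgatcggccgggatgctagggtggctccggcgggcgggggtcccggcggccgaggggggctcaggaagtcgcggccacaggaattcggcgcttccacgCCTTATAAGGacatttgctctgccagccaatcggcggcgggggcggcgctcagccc
In Acta2 the boxes lie 84 to 75 and 34 to 25 bases upstream of that start, and each departs from the motif by 1 letter. The matching box of Acta1 lies 73 to 64 bases upstream, that of Cnn2 56 to 47 and that of Myl9 161 to 152.

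Expression is given as FPKM (fragments per kilobase, scaled to library size). The values matched the joined length of all annotated exons of a gene, such as 6485 bases for Tpm1 and 1162 for Myl9. The length of the transcripts in use can be shorter, so levels are only roughly comparable between genes. MEF libraries held 10499019 to 17150052 reads in matched genes. The range was 6358587 to 16647561 for colon, and for liver it was 9096993 to 14297505. In MEFs no value of these 10 genes rested on fewer than 114 reads. The Xenopus MEK1 transgene stood between 460 and 1169 FPKM in caMEK1 MEFs on doxycycline, against 1.94 to 4.04 FPKM without it. The human MKK6 transgene stood between 130 and 1209 FPKM in caMKK6 MEFs on doxycycline, against 0.407 to 3.17 FPKM without it. In all, 5 of the 12 caMKK6 MEF libraries also listed the Xenopus transgene, at 10.96 to 16.5 FPKM: replicates 2 and 3 of the untreated group, replicates 2 and 3 of day 2, and replicate 2 of day 4. Calls of the 10 genes in caMKK6 MEFs that change when those 5 libraries are left out are given both ways. Other genes named below, Srf among them, were read only with all libraries in the fit. Of 6 hepatocyte markers, all were below 1 FPKM in every MEF library, and none of 9 fibroblast and stromal markers was.

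In untreated MEFs the order of levels ran from Acta2 and Tagln at the top to Myh11 at the bottom. In untreated caMEK1 MEFs, Acta2 averaged 2439 ± 164 FPKM and Tagln, the calponin-related protein transgelin, 2150 ± 168 FPKM (SD, n = 3), and their ranges overlapped. Tpm1 at 436 ± 36.2 FPKM and Myl9 at 431 ± 15.8 FPKM came next and overlapped as well. Below them Cnn2 (404 ± 8.42), Tpm2 (319 ± 8.78), Actg2 (237 ± 39.9), Cnn1 (98.3 ± 7.57), Acta1 (60.2 ± 10.2) and Myh11 (19.5 ± 6.07) followed without overlap between neighbours. Untreated caMKK6 MEFs gave the same first 3 and last 5 genes in the same order, with Cnn2 and Myl9 exchanged. There Tpm1, Cnn2 and Myl9 overlapped, as did Tpm2 with Actg2 and Cnn1 with Acta1, while Acta2 and Tagln were apart. The smooth muscle myosin heavy chain thus had the lowest FPKM of the 10. No gene of the set differed between untreated caMEK1 and untreated caMKK6 MEFs in the test across all 11347 genes (limma, Benjamini-Hochberg adjusted p between 0.29 and 0.95), a comparison in which 6.48% of genes were called. At an unadjusted p below 0.05 there were also 0 of 10.

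**Figure D1:**
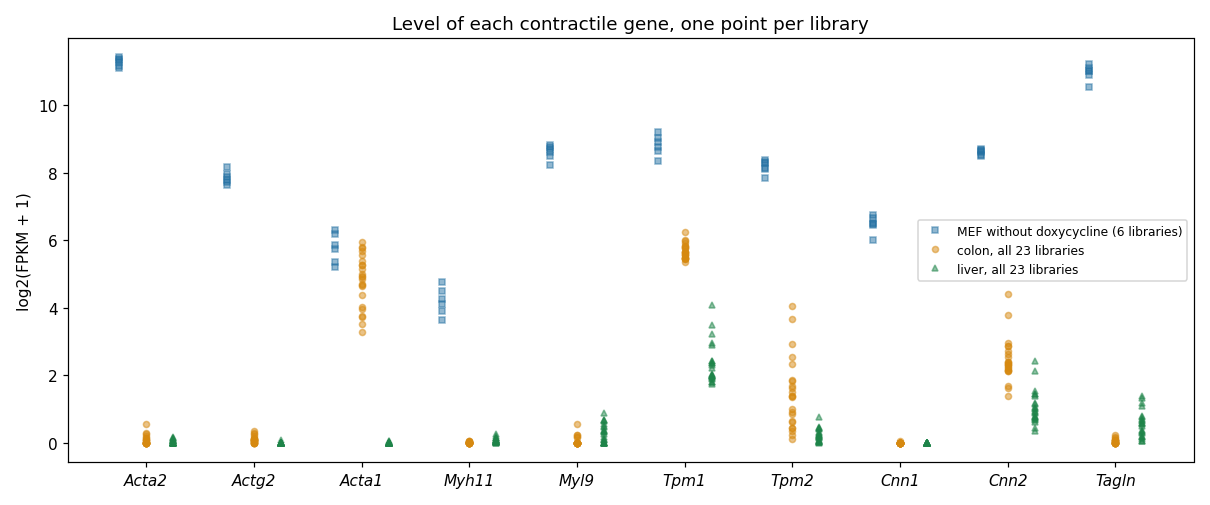
Level of each gene as log2(FPKM + 1), with one point per library, in untreated MEFs (squares, 6 libraries), colon (circles, 23 libraries) and liver (triangles, 23 libraries). All 10 genes were expressed in MEFs, whereas in the sorted tissues Tpm1 was detected in every library and Acta1 was high in colon and near 0 in liver.

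With caMEK1 on, all 10 genes fell, at every time point. The count was 10 of 10 lower at day 2, where 19.8% of all genes were called lower, 10 of 10 at day 4 (29.3%) and 10 of 10 at day 7 (28.7%). For each of the 10, the 3 treated libraries of each day lay below all 3 untreated ones. The share of all genes whose ranges were apart was not counted, here or in the comparisons below. The median log2 fold change of the 10 was −1.83 at day 2, −2.09 at day 4 and −2.48 at day 7, against −0.01, −0.01 and 0.03 over all genes. As a share of all FPKM, the set averaged 2.43% ± 0.142 without doxycycline. The treated groups averaged 0.678% ± 0.0607, 0.553% ± 0.0497 and 0.524% ± 0.148 on the 3 days (SD, n = 3 each). All 10 calls held at each day when any 1 library was left out and under every other setting tried.

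Among the actins, Acta2, the smooth muscle alpha-actin, stood at 196, 292 and 483 FPKM in the 3 caMEK1 libraries of day 7, against 2256, 2485 and 2574 FPKM without doxycycline. All 3 treated libraries lay far below the untreated ones. The difference was −3.01 ± 0.24 on the log2(FPKM + 1) scale (fold change ± SE; limma, adjusted p = 2.4e-09), after −2.52 ± 0.24 at day 2 (7.1e-08).
Actg2, the gamma-actin of enteric smooth muscle, gave the largest change of the 10 at day 7. It stood at 9.81, 16.7 and 21.3 FPKM in caMEK1 MEFs of that day, against 210, 283 and 219 FPKM without doxycycline, a log2 change of −3.87 ± 0.33 (adjusted p = 4.6e-09). Acta1, the skeletal muscle alpha-actin that fibroblasts and smooth muscle cells also express, stood at 9.30, 8.20 and 22.8 FPKM at day 7, against 56.6, 52.3 and 71.7 FPKM. Its log2 change of −2.21 ± 0.40 had the widest error of the set (adjusted p = 8.4e-05). Of 12 skeletal muscle markers, 11 (Myod1, Myog, Myf5, Pax7 and Ckm among them) were below 1 FPKM in every MEF library. The exception, the acetylcholine receptor subunit Chrna1, averaged 6.62 ± 1.49 FPKM at day 7 of caMEK1, against 0.667 ± 0.108 FPKM, and so moved the other way from Acta1.

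Of the myosin chains, Myh11, the smooth muscle heavy chain, stood at 0.932, 2.35 and 2.97 FPKM in caMEK1 MEFs at day 7, against 14.1, 26.1 and 18.4 FPKM without doxycycline. The change was −2.76 ± 0.35 (adjusted p = 9.8e-07), and the scale, which adds 1 to each value, understates it at such low levels. Myl9, a regulatory light chain of smooth muscle and non-muscle myosin, stood at 43.4, 62.3 and 92.1 FPKM at day 7, against 415, 447 and 429 FPKM (−2.75 ± 0.25, adjusted p = 1.3e-08). Both chains had already fallen at day 2, Myh11 by 2.00 and Myl9 by 2.59 on the log2 scale.

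The tropomyosins, coiled coils that lie along the actin filament, changed least. Tpm1 stood at 221, 240 and 287 FPKM in caMEK1 MEFs at day 7, against 401, 432 and 473 FPKM (−0.81 ± 0.18, adjusted p = 0.0008). Tpm2 stood at 149, 132 and 166 FPKM, against 312, 317 and 329 FPKM (−1.10 ± 0.16, adjusted p = 6.8e-06). Their changes were, with that of Cnn2, the smallest of the set, although the treated and untreated ranges stayed apart.

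The calponin family was split in size. Cnn1, basic calponin of smooth muscle, stood at 6.58, 8.50 and 11.5 FPKM in caMEK1 MEFs at day 7, against 99.6, 105 and 90.2 FPKM, a change of −3.36 ± 0.20 with the smallest adjusted p of the set (3.9e-11). Its broadly expressed relative Cnn2 stood at 154, 160 and 205 FPKM, against 406, 411 and 395 FPKM (−1.23 ± 0.10, adjusted p = 4.1e-09). Tagln stood at 410, 415 and 619 FPKM, against 2037, 2070 and 2342 FPKM (−2.18 ± 0.17, adjusted p = 1.1e-09). Exons of Tagln overlap those of Pcsk7 on the opposite strand by 1241 bases, and whether reads were counted by strand is not given in the sources used here. Pcsk7 stood at only 4.80 to 7.35 FPKM in MEFs.

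Most of the fall was in place by day 2. The median change of the 10 against no doxycycline was −1.83 at day 2 and −2.48 at day 7, and day 7 was not tested against day 2. Between day 4 and day 2 of caMEK1, limma called 0 of the 10 genes (31.3% of all genes were called, and 1 of the 10 had an unadjusted p below 0.05), and between day 7 and day 4 again 0 (3.6% of all genes; 0 of the 10 at an unadjusted p below 0.05). Actg2 gave the steepest later values, −0.75 ± 0.33 for day 4 against day 2 (adjusted p = 0.088) and −0.64 ± 0.33 for day 7 against day 4 (0.30). With a replicate block within genotype, Actg2 was called in both (adjusted p = 0.0041 and 0.032) and Myh11 in the day 7 comparison (−0.57, adjusted p = 0.024). Without day 4 replicate 2, Actg2 was called in the day 4 comparison (−1.05, adjusted p = 0.032), as was Tagln under quantile normalization (−0.50, 0.047).

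**Figure D2:**
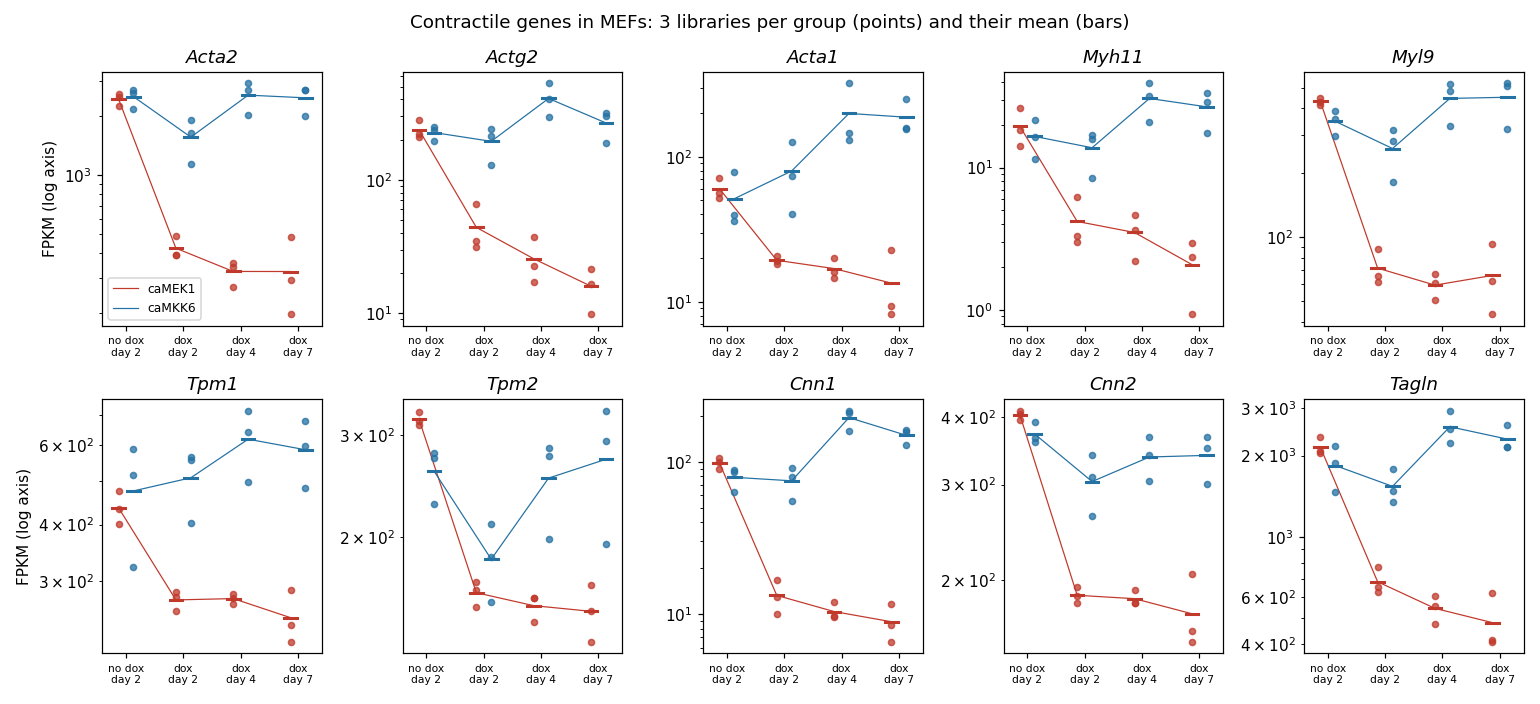
FPKM of the 10 genes on a log axis in MEFs without doxycycline and at days 2, 4 and 7 of doxycycline, for caMEK1 and caMKK6. Points are the 3 libraries of a group and bars their mean. The caMEK1 points lie below all untreated caMEK1 points from day 2 on. Under caMKK6, Acta2, Tpm2 and Cnn2 were called lower at day 2, and Acta1 and Cnn1 higher at days 4 and 7. Tagln was called higher at day 4, and means of other genes also moved without a call.

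With caMKK6 on, fewer of the 10 genes were called than with caMEK1, and the direction of the calls differed between days. The median log2 fold change of the 10 was −0.26 at day 2, 0.45 at day 4 and 0.33 at day 7. Over all genes it was −0.06, −0.06 and −0.04. At day 2, 3 of the 10 were lower, beside 24.8% of all genes. At day 4, 3 were higher and 0 lower, beside 17.1% and 27.7% of all genes, and at day 7, 2 were higher and 0 lower, beside 16.8% and 24% of all genes. The set averaged 2.31% ± 0.289 of all FPKM without doxycycline, and the 3 treated groups, in order of time, averaged 1.75% ± 0.353, 2.72% ± 0.432 and 2.54% ± 0.315 (SD, n = 3 each).

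The genes called lower at day 2 were Acta2, Tpm2 and Cnn2, a count near the share of all genes called lower. Acta2 stood at 1644, 1135 and 1905 FPKM in caMKK6 MEFs at day 2, against 2625, 2183 and 2722 FPKM without doxycycline (−0.71 ± 0.24, adjusted p = 0.027). Tpm2 stood at 185, 155 and 211 FPKM, against 279, 228 and 273 FPKM (−0.51 ± 0.16, adjusted p = 0.017), and Cnn2 at 340, 262 and 309 FPKM, against 391.7, 359 and 366 FPKM (−0.30 ± 0.10, adjusted p = 0.029). The treated and untreated ranges were apart for these 3 genes and overlapped for the other 7. Without the 5 libraries that list the Xenopus transgene none of the 3 was called (Acta2 −0.67, adjusted p = 0.29; Tpm2 −0.59, 0.12; Cnn2 −0.20, 0.44), and the same happened without untreated replicate 1, untreated replicate 3 or day 2 replicate 2 alone. Acta2 also missed with no filter (0.053), under median scaling (0.051) and under quantile normalization (0.090), and Cnn2 under median scaling (0.14). With the block within genotype 5 were called, Myl9 lower (−0.45, adjusted p = 0.024) and Acta1 higher (0.57, 0.028) being added.

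The genes called higher under caMKK6 were Acta1 and Cnn1 at days 4 and 7, and Tagln at day 4. Acta1 stood at 320, 130 and 146 FPKM in caMKK6 MEFs at day 4 and at 249, 156 and 157 FPKM at day 7, against 78.2, 35.8 and 39.9 FPKM without doxycycline. Replicate 1 was the highest library in each of these groups, and the treated and untreated ranges did not overlap. The log2 change was 1.90 ± 0.40 on both days (adjusted p = 0.00079 and 0.0009). Without the 5 libraries it was 1.46 at day 4 (adjusted p = 0.048) and 1.21 at day 7 (0.071).

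Cnn1 stood at 210, 158 and 217 FPKM in caMKK6 MEFs at day 4 and at 156, 128 and 163 FPKM at day 7, against 88.0, 63.5 and 85.6 FPKM. All 6 libraries lay above the untreated ones, with changes of 1.29 ± 0.20 (adjusted p = 5.2e-05) and 0.92 ± 0.20 (0.0014) that held without the 5 libraries (1.27, adjusted p = 0.0052, and 0.75, 0.044). Tagln stood at 2932, 2225 and 2513 FPKM at day 4, against 1879, 1463 and 2170 FPKM (0.49 ± 0.17, adjusted p = 0.023). That call was lost without the 5 libraries (0.53, adjusted p = 0.11), without untreated replicate 2 (0.14), without day 4 replicate 1 (0.11), under quantile normalization (0.38) and with no filter (0.056).

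For Acta2 and Tpm2 the values at day 7 of caMKK6 lay close to the untreated ones. Acta2 stood at 2717, 1999 and 2710 FPKM at day 7, a change of −0.03 ± 0.24 (adjusted p = 0.94), and Tpm2 at 330, 194 and 292 FPKM, a change of 0.04 ± 0.16 (0.88). Actg2, Myh11, Tpm1 and Myl9 gave 0.21 ± 0.33, 0.65 ± 0.35, 0.33 ± 0.18 and 0.35 ± 0.25 at day 7, with adjusted p between 0.14 and 0.64. At day 4, Actg2 (0.81 ± 0.33, adjusted p = 0.050) and Myh11 (0.85 ± 0.35, 0.052) lay at the threshold and were not called, though they were with voom and with median scaling. With the block within genotype, Myh11, Tpm1 and Tagln were called higher at day 7 (adjusted p = 0.0024, 0.0015 and 0.043) and Actg2, Myh11 and Tpm1 at day 4 (0.0016, 0.00024 and 0.00022), which made 5 and 6 calls in place of 2 and 3.

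The upturn after day 2 was tested directly. Between day 4 and day 2 of caMKK6, 7 of 10 genes rose, beside 7.39% of all genes called higher: Cnn1 (1.39 ± 0.20, adjusted p = 0.00025), Acta1 (1.33 ± 0.40, 0.029), Myh11 (1.11 ± 0.35, 0.034), Actg2 (1.07 ± 0.33, 0.032), Myl9 (0.79 ± 0.25, 0.038), Tagln (0.73 ± 0.17, 0.0058) and Acta2 (0.72 ± 0.24, 0.048). Actg2, for example, stood at 400, 293 and 528 FPKM at day 4, against 212, 130 and 241 FPKM at day 2, and all 3 later libraries were above the earlier ones for each of the 7. With the block within genotype 9 rose, Tpm1 and Tpm2 being added (adjusted p = 0.010 and 0.001). Without the 5 libraries 2 of 10 were called, and the genes lost were Actg2 (1.116, adjusted p = 0.22), Myh11 (1.10, 0.21), Myl9 (0.83, 0.19), Acta2 (0.78, 0.23) and Acta1 (0.78, 0.40). With no filter on low genes 2 of 10 were also called, and leaving out day 2 replicate 2, day 4 replicate 1 or day 4 replicate 3 gave 2, 2 and 3. Acta2, at an adjusted p just under the threshold, missed it in most of the fits that left out 1 library. Between day 7 and day 4 limma called 0 of 10 (3% of all genes; 0 at an unadjusted p below 0.05), and with the block within genotype Actg2 was lower (−0.60, adjusted p = 0.044).

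Replicate 2 of the caMKK6 series was the lowest of its 3 libraries for 39 of 40 gene and group pairs, untreated and treated alike. The same replicate number held the most human MKK6 RNA in each treated group (1209, 1119 and 666 FPKM at days 2, 4 and 7). In the caMEK1 series replicate 1 was lowest in 28 of 40 pairs. The part of these replicate differences in the results was not tested beyond the fits given here.

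The changes under the 2 kinases were then compared with each other. The change under caMEK1 lay below that under caMKK6 for 9 of 10 genes at day 2, where 8.8% of all genes were called lower, and for 10 of 10 at day 4 (14.3%) and at day 7 (14.5%). At day 7 the difference was −4.27 ± 0.29 for Cnn1 (adjusted p = 7.1e-10), −4.11 ± 0.57 for Acta1 (1.1e-05), −4.07 ± 0.46 for Actg2 (1e-06) and −2.98 ± 0.34 for Acta2 (1.3e-06). Cnn2, at −1.10 ± 0.15, Tpm2, at −1.14 ± 0.23, and Tpm1, at −1.14 ± 0.26, gave the smallest differences. The gene that missed at day 2 was Tpm2 (−0.48 ± 0.23, adjusted p = 0.14), which fell under both kinases at that time; it was called with the block within genotype (0.0055). Without the 5 libraries, Myh11 (−1.57, adjusted p = 0.13) and Tpm1 (−0.61, 0.11) were not called at day 2. Tpm1 also missed with no filter (0.056), under quantile normalization (0.058) and when any 1 of 7 libraries was left out (0.053 to 0.090).

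**Figure D3:**
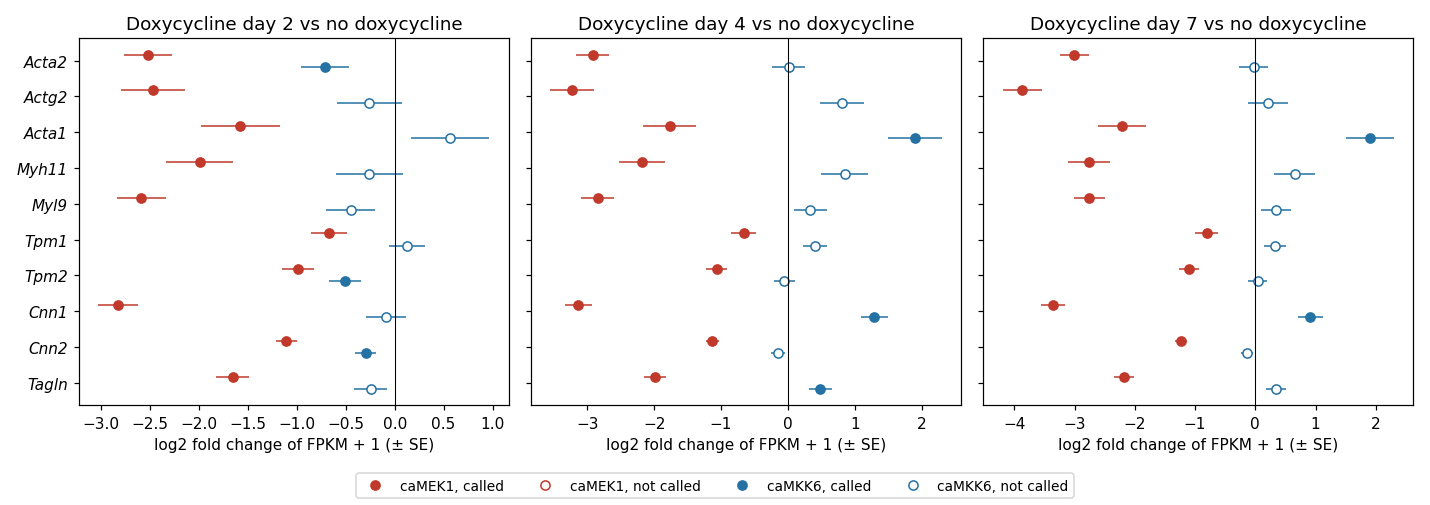
Log2 fold change of FPKM + 1 (± SE) of the 10 genes at days 2, 4 and 7 of doxycycline against no doxycycline, for caMEK1 and caMKK6 (limma; filled points passed an adjusted p of 0.05). All 30 caMEK1 points are below 0 and called; Acta1 and Cnn1 under caMKK6 are above 0 and called at days 4 and 7.

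Other genes of the contractile pathway were read from lists, chosen like the 10 genes with earlier results of these data known. Of 14 further contractile genes tested, 12 were lower and 0 higher at day 7 of caMEK1, beside 28.7% and 33.4% of all genes. Lmod1, leiomodin, which nucleates actin filaments, averaged 4.44 ± 1.52 FPKM, against 27.2 ± 0.941 FPKM without doxycycline, and Mylk, myosin light chain kinase, 0.471 ± 0.0936 FPKM, against 5.40 ± 1.20 FPKM (SD, n = 3 each). Csrp1, a LIM protein of the actin cytoskeleton, averaged 125 ± 28.2 FPKM, against 477 ± 35.0 FPKM. At day 7 of caMKK6, 3 of the 14 were higher and 2 lower, beside 16.8% and 24% of all genes, Csrp1 being higher at 767 ± 149 FPKM, against 460 ± 24.8 FPKM, and the smoothelin gene Smtn lower at 17.5 ± 1.86 FPKM, against 22.7 ± 0.760 FPKM. Pln, phospholamban, averaged 1.97 ± 1.87 FPKM at day 7 of caMKK6 and was listed at 0 in all 3 untreated libraries.

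Of 12 SRF and MRTF targets outside the set, 9 were lower and 1 higher at day 7 of caMEK1, beside 28.7% and 33.4% of all genes. At day 7 of caMKK6, 5 were lower and 0 higher, beside 24% and 16.8% of all genes. Ccn2, the connective tissue growth factor, averaged 54.1 ± 30.6 FPKM in caMEK1 MEFs at day 7, against 667 ± 31.8 FPKM. Ccn1, a matrix-associated relative, was lower under both kinases, at 122 ± 16.2 FPKM in caMEK1 MEFs against 586 ± 40.5 FPKM untreated, and at 290.2 ± 11.3 FPKM in caMKK6 MEFs against 541 ± 37.1 FPKM untreated. Zyx, the focal adhesion protein zyxin, was lower at day 7 of caMKK6, at 113 ± 8.50 FPKM against 149 ± 6.76 FPKM. Acta1 and Cnn1 were called higher in the same caMKK6 libraries.

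Srf itself fell at all 3 times under caMEK1, to means of 23.2, 17.9 and 16.4 FPKM at days 2, 4 and 7, against 40.2 FPKM without doxycycline (−1.24 ± 0.07 at day 7, adjusted p = 2.9e-11). Under caMKK6 it averaged 34.3, 30.6 and 26.1 FPKM, against 35.2 FPKM, and was called lower at days 4 and 7 (−0.42 ± 0.07 at day 7, adjusted p = 0.00017). The cofactor gene Mrtfa was not called under caMEK1 at any day and was lower under caMKK6 at day 4 (−0.22 ± 0.09, adjusted p = 0.048) and at day 7 (12.3 ± 1.21 FPKM, against 16.3 ± 0.530 FPKM; −0.38 ± 0.09, adjusted p = 0.0015), while Mrtfb was higher at day 7 of caMEK1 (5.94 ± 0.652 FPKM, against 4.16 ± 0.0996 FPKM). Myocd, the gene of myocardin, did not reach 0.4 FPKM in any MEF library and was not tested.

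Of 11 non-muscle filament genes tested, 8 were lower and 0 higher at day 7 of caMEK1, beside 28.7% and 33.4% of all genes, and 3 were lower and 1 higher at day 7 of caMKK6, beside 24% and 16.8%. Actb, cytoplasmic beta-actin, averaged 1192 ± 83.7 FPKM, against 2109 ± 162 FPKM (−0.82 ± 0.10, adjusted p = 1.2e-06). Actn1, an alpha-actinin that cross-links filaments, averaged 149 ± 29.8 FPKM, against 316 ± 17.9 FPKM. Under caMKK6 the genes called at day 7 were Actn4 (−0.50 ± 0.09, adjusted p = 0.00016), Tpm4 (−0.26 ± 0.06, 0.0021), Tpm3 (−0.22 ± 0.05, 0.0029) and Cnn3 (0.13 ± 0.05, 0.033).

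Markers of other cells moved in the same MEF libraries. The summed level of 9 fibroblast and stromal markers was 306.1 to 445.9 FPKM at day 7 of caMEK1, against 1028 to 1340 FPKM without doxycycline, with Col1a1 called lower at 114 ± 21.5 FPKM, against 576 ± 99.3 FPKM, and Lum called higher at 7.08 ± 4.85 FPKM, against 0.927 ± 0.257 FPKM. Under caMKK6 the same sum was 791.6 to 967 FPKM at day 2 and 836.5 to 1192 FPKM at day 4, against 1298 to 1603 FPKM without doxycycline. At day 7 of caMKK6 it was 1302 to 1722 FPKM, with members called both ways. Lum (2.13, adjusted p = 0.0022) and Dcn (1.16, 0.0058) were higher, and Pdgfrb (−0.96, 0.0043) and Pdgfra (−0.81, 0.024) were lower on the log2 scale. The epithelial adhesion gene Epcam averaged 5.82 ± 0.912 FPKM at day 7 of caMEK1, against 0.0408 ± 0.0123 FPKM, and the myeloid gene Lyz2 179 ± 78.9 FPKM, against 27.7 ± 8.66 FPKM, while the pan-leukocyte gene Ptprc was below 1 FPKM in every MEF library. Their part in the contractile values was not tested.

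Across the 24 MEF libraries the 10 genes followed one another, with Pearson r on log2(FPKM + 1) between 0.724 (Acta1 with Tpm2) and 0.993 (Acta2 with Myl9). These are descriptions over libraries that share 8 groups, in which the caMEK1 fall dominates. Among genes outside the set with a mean of at least 5 FPKM over these libraries, those most like Acta2 were Fhl1 (r = 0.989), Inpp5a (0.984), Lmod1 (0.983), Phldb2 (0.983) and Rsu1 (0.981). Those most like Cnn1 were Csrp1 (0.979), Tgm2 (0.976), Gask1b (0.976), Rnd3 (0.973) and Alkal1 (0.970). The 2 groups of 5 had no gene in common.

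In the sorted tissues most of the set was near the limit of detection. Cnn1 had 0 reads in all 23 liver libraries and in 22 of 23 colon libraries, with 2 reads in the other. Acta2 did not exceed 4 reads in any liver library or 8 in any colon library, Actg2 1 and 5 reads, Myl9 12 and 8 reads, and Myh11 19 and 5 reads. Of 9 pericyte and stellate markers, 8 were below 1 FPKM in every colon library, whereas Cspg4 and Notch3 were the 2 below 1 FPKM in every liver library. Of the 10 genes, 3 passed the filter in liver (Tpm1, Cnn2 and Tagln) and 4 in colon (Acta1, Tpm1, Tpm2 and Cnn2), so the counts below concern those genes alone.

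In liver, Tpm1 was higher in kinase-carrying cells of both genotypes, the one change there. It stood at 8.41, 10.4 and 6.74 FPKM in caMEK1 mCherry cells, against 2.73 and 2.38 FPKM in Control mCherry cells (1.40 ± 0.24, adjusted p = 0.00032). It stood at 6.44 and 16.0 FPKM in caMKK6 mCherry cells, a change of 1.66 ± 0.26 against the same Control libraries (adjusted p = 0.00023). All 5 kinase libraries lay above both Control libraries. In these comparisons 10.7% and 28.9% of all genes were called higher, and 1 of the 3 tested members. The median over all genes was 0.25 in the caMKK6 comparison; with libraries scaled to a common median the Tpm1 value was 1.31 (adjusted p = 0.00071). It was 1.07 without caMKK6 mCherry replicate 2, the library at 16.0 FPKM (adjusted p = 0.0012), and 2.26 without replicate 1.

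Against GFP cells of the same mice, Tpm1 was higher in each of the 5 animals. The fits below did not pair the colours of an animal. With a block by animal, 1277 genes in place of 488 were called in caMEK1 mice, counting either direction. In caMKK6 mice the number was 954 in place of 444. In caMEK1 mice the mCherry and GFP values were 8.41 and 4.40, 10.4 and 4.15, and 6.74 and 4.15 FPKM per animal (0.84 ± 0.21, adjusted p = 0.028, beside 3.75% of all genes called higher). In caMKK6 mice they were 6.44 and 2.97, and 16.0 and 4.34 FPKM (1.29 ± 0.26, adjusted p = 0.0091, beside 3.99%). The caMEK1 call was lost without mCherry replicate 1 (0.84, adjusted p = 0.077) or 2 (0.71, 0.20) or without any 1 of the 3 GFP libraries (0.057 to 0.078), and the caMKK6 call without mCherry replicate 2 (0.69, 0.079). In Control mice the mCherry and GFP values were 2.73 and 3.93, and 2.38 and 3.68 FPKM, so that the order of colours was the other way.

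Markers of other cells were also present in the liver sorts. The summed level of 6 endothelial markers was 22.4 to 47.97 FPKM in caMEK1 mCherry cells and 37.21 to 75.78 FPKM in caMKK6 mCherry cells, against 53.8 to 56.39 FPKM in Control mCherry cells. The 9 fibroblast and stromal markers summed to 7.213 to 14.8 FPKM and 9.138 to 13.5 FPKM, against 8.456 to 9.144 FPKM, with Col1a1, Thy1 and Fap below 1 FPKM in every liver library. The 9 pericyte and stellate markers summed to 21.51 to 27.12 FPKM in caMEK1 mCherry cells and 9.709 to 18.23 FPKM in caMKK6 mCherry cells, against 11.62 to 11.76 FPKM, and the 4 cholangiocyte markers to 27.68 to 112.3 FPKM and 3.714 to 4.514 FPKM, against 8.829 to 12.94 FPKM. Acta2, a gene of activated stellate cells, stayed at 0.143 FPKM or less in every liver library. The part of these cells in the Tpm1 values was not tested.

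Tpm1 in caMEK1 GFP cells of mice on doxycycline, the neighbours of kinase-carrying cells, stood at 4.40, 4.15 and 4.15 FPKM, against 2.51, 2.83 and 3.00 FPKM in GFP cells without doxycycline. The ranges did not overlap, but the gene was not called (0.47 ± 0.21, adjusted p = 0.086, beside 38.5% of all genes called in either direction). The median of all genes was −0.25 in that comparison, and with libraries scaled to a common median the change was 0.72 and called (adjusted p = 0.010). It was also called when either caMKK6 mCherry library was left out of the fit (0.010). In Control GFP cells on doxycycline, at another dose, Tpm1 stood at 3.93 and 3.68 FPKM. In caMKK6 mice the GFP values were 2.97 and 4.34 FPKM, against 3.06, 2.53 and 2.88 FPKM (0.27 ± 0.24, adjusted p = 0.43, beside 19% of all genes). Between caMEK1 and caMKK6 mCherry cells the Tpm1 difference was −0.26 ± 0.24 (adjusted p = 0.42; 0 of 3 members called beside 31.7% of all genes, and 0 at an unadjusted p below 0.05). Without caMKK6 mCherry replicate 1 it was −0.86 and called (0.0044), and under median scaling its sign turned, to 0.13 (0.74).

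Cnn2 and Tagln were low in liver. Cnn2 ranged over 0.291 to 4.39 FPKM and Tagln over 0.0346 to 1.62 FPKM, and neither was called in any of the 7 liver comparisons. Tagln stood at 0.143, 0.0474 and 0.421 FPKM in caMEK1 mCherry cells and at 0.0800 and 0.135 FPKM in caMKK6 mCherry cells, against 0.730 and 0.575 FPKM in Control mCherry cells. Those values rest on 1 to 18 reads. The overlapping gene Pcsk7 stood at 2.89 to 7.11 FPKM in liver. In colon Pcsk7 stood at 18.96 to 40.15 FPKM, and Tagln had 0 to 5 reads per library there. The source of the Tagln reads in liver was not tested.

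In colon, Tpm2 and Cnn2 were higher in caMEK1 cells. Tpm2 stood at 11.8 and 15.7 FPKM in caMEK1 mCherry cells, against 1.57 and 0.0796 FPKM in Control mCherry cells (3.13 ± 0.59, adjusted p = 0.0011). Cnn2 stood at 12.8 and 20.2 FPKM, against 2.25 and 4.20 FPKM (2.05 ± 0.33, adjusted p = 0.00028). The caMEK1 libraries lay far above the Control ones for both, 2 of 4 tested members being called beside 9.54% of all genes called higher. Tpm1, the most abundant of the tested members in colon by its median, stood at 59.6 and 75.3 FPKM, against 53.9 and 43.5 FPKM, and was not called (0.46 ± 0.19, adjusted p = 0.089).

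The same 2 genes separated caMEK1 mCherry cells from GFP cells of the same animals, in a fit that did not pair the colours of an animal. With a block by animal, 2607 genes in place of 1550 were called, counting either direction. Tpm2 stood at 11.8 and 15.7 FPKM in mCherry cells, against 0.908 and 2.07 FPKM in GFP cells (2.60 ± 0.59, adjusted p = 0.0067), and Cnn2 at 12.8 and 20.2 FPKM, against 3.78 and 3.97 FPKM (1.81 ± 0.33, adjusted p = 0.0014), beside 5.71% of all genes called higher. Without mCherry replicate 2 neither was called (adjusted p = 0.11 and 0.054), Tpm2 was not called without GFP replicate 1 (0.10), and with a pseudocount of 0.1 Tpm2 was not called (0.059). In Control mice Tpm2 was lower in mCherry than in GFP cells of both animals, at 1.57 against 4.90 FPKM and at 0.0796 against 0.271 FPKM.

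In caMKK6 colon, Tpm2 stood at 6.70, 4.05 and 2.59 FPKM in mCherry cells, against 1.57 and 0.0796 FPKM in Control mCherry cells (1.64 ± 0.54, adjusted p = 0.039, beside 11.1% of all genes called higher). The 3 caMKK6 libraries lay above both Control ones. The call was lost with no filter (0.070), with voom (0.075), without Control replicate 2 (1.01, 0.34) and without caMKK6 mCherry replicate 1 (0.13) or 2 (0.073). Cnn2 stood at 5.60, 2.07 and 4.27 FPKM in these cells, within reach of the Control values (0.21 ± 0.31, adjusted p = 0.67). Cnn2 was higher in caMEK1 than in caMKK6 mCherry cells (1.85 ± 0.31, adjusted p = 0.00035, 1 of 4 members beside 8.56% of all genes called higher). For Tpm2 that difference was 1.496 ± 0.54 (adjusted p = 0.058), and it was called with a replicate block by animal (0.039).

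Within caMKK6 mice no member was called between mCherry and GFP cells by limma without the block (21.3% of all genes were; 2 of 4 members had an unadjusted p below 0.05). With the replicate block by animal 2 were called, and they moved in opposite directions; Tpm2 was also called without either Control GFP library (0.040). Tpm2 stood at 6.70 against 1.62, 4.05 against 1.64 and 2.59 against 0.828 FPKM in the 3 animals, mCherry first (1.15, adjusted p = 0.0035). Acta1 stood at 12.5 against 41.0, 24.2 against 46.3 and 14.7 against 24.7 FPKM (−1.08, adjusted p = 0.0041). In caMEK1 mice Acta1 stood at 53.4 against 55.1 and 19.6 against 28.0 FPKM, lower in the mCherry cells of both animals but not called (−0.27 ± 0.55, adjusted p = 0.80).

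Acta2 stayed at 0.473 FPKM or less in colon cells and Actg2 at 0.289 FPKM or less. Among the actins of the set, only Acta1 had substantial RNA there. It stood at 8.69 to 61.0 FPKM over the 23 libraries (148 to 930 reads). Of its 50-base stretches, 2.02% also occur in transcripts of other genes, Actb among them. Of 12 skeletal muscle markers, 11 were below 1 FPKM in every colon library, Ckm, Myod1 and Myog among them, the exception being the slow troponin gene Tnni1. In liver Acta1 had at most 1 read.

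No member was called between GFP cells of mice on doxycycline and GFP cells without it in colon, in caMEK1 mice (1.33% of all genes called) or in caMKK6 mice (2.6%). At an unadjusted p below 0.05 the count was 0 of 4 for caMEK1 and 1 of 4 for caMKK6, where Tpm1 stood at 61.8, 48.1 and 55.5 FPKM, against 42.2, 42.3 and 46.0 FPKM (0.33 ± 0.15, adjusted p = 0.23).

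Markers of other cells in the colon sorts stood as follows. The 9 fibroblast and stromal markers summed to 0.9568 to 1.522 FPKM in caMEK1 mCherry cells and 1.9 to 4.711 FPKM in caMKK6 mCherry cells, against 3.546 to 5.499 FPKM in Control mCherry cells. The 9 pericyte and stellate markers summed to 0.7248 to 1.585 FPKM and 0.485 to 0.6497 FPKM, against 2.446 to 6.842 FPKM. In caMEK1 cells both sums lay below the Control range, while in caMKK6 cells the pericyte and stellate sum lay below it and the fibroblast and stromal sum overlapped it. Of 4 mesothelial markers, Wt1, Upk3b and Lrrn4 were below 1 FPKM in every colon library, and the sum, carried by Msln, was 38.11 to 111 FPKM in caMEK1 mCherry cells and 0.664 to 7.19 FPKM in caMKK6 mCherry cells, against 0 to 0.02192 FPKM. The part of Msln-expressing cells in the Cnn2 and Tpm2 values was not tested.

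**Figure D4:**
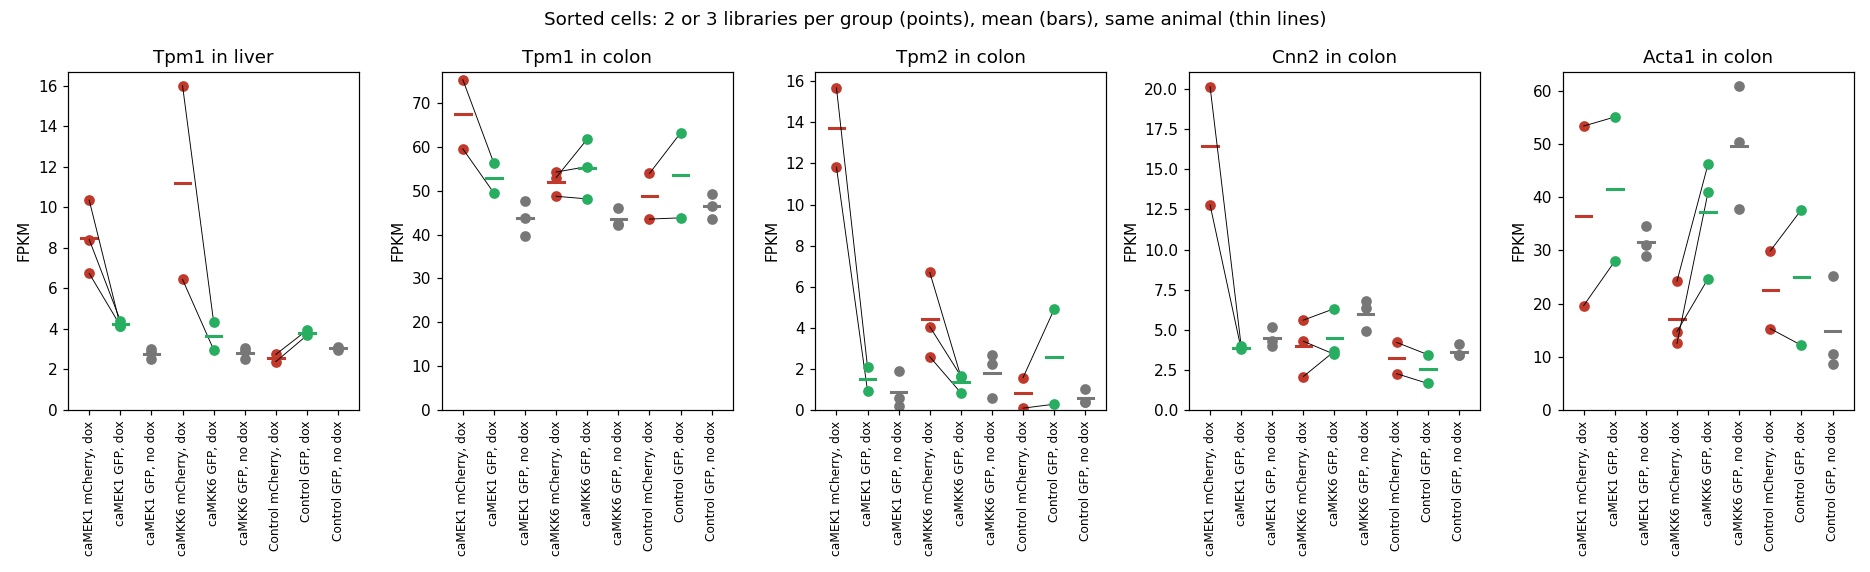
FPKM of Tpm1 in liver and of Tpm1, Tpm2, Cnn2 and Acta1 in colon, by genotype, colour and doxycycline; points are libraries, bars their mean, and thin lines join mCherry and GFP cells of one animal. Tpm1 in liver is higher in mCherry than in GFP cells of all 5 kinase animals, and caMEK1 mCherry cells stand above the other colon groups for Tpm2 and Cnn2.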

How the data were processed

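RNA-seq of 70 libraries was used as deposited, in 1 table of FPKM values made by the authors; per the submitters' processing notes, cutadapt 1.12 and STAR 2 were used with mm10. The counting tool, its annotation and strand setting are not given in the sources used here. Against exon lengths of GENCODE M21, 100% of values under 1000 reads were whole within 0.02 of a read, which gave the depths and reads. Groups came from the labels. The 10 genes, the lists and the rule for naming genes (all 10; per list up to 4 called genes of largest day 7 change per kinase; 5 genes most like Acta2 and Cnn1) were chosen with earlier results of these data known. The result of 1 list is not reported here.

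Each tissue had 1 fit on log2(FPKM + 1) with limma 3.58.1 (R 4.3.3; trend, two-sided), keeping a gene that reached 1 FPKM in 3 MEF libraries, or in 2 of a sorted tissue, which left 11347 genes in MEFs, 10371 in liver and 11542 in colon. A call means an adjusted p (Benjamini-Hochberg) under 0.05; 28 comparisons were made. Fold changes on this scale understate low genes. The test was checked on simulated data.

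Same-numbered MEF libraries of a genotype deviated together in all 36 pairs (r 0.112 to 0.803), across genotypes in 2 of 48 above 0.1, so numbers were taken to pair libraries within a genotype; in tissues the animal comes from the labels (r 0.396 to 0.817, 14 pairs). Alternatives were a pseudocount of 0.1, no filter, median scaling, quantile normalization, voom on recovered reads, blocks by replicate number or animal, no caMKK6 libraries above 5 FPKM of the Xenopus transgene, and each library left out.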

Additional observations from a re-analysis of the deposited data

Results flagged for a closer look

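Differences between the kinases are given here as values of the caMEK1 change minus the caMKK6 change in MEFs (log2 scale, limma), each with an adjusted p below 0.05 for the difference itself. At day 2 they were −1.81 for Acta2, −2.21 for Actg2, −2.15 for Acta1, −1.73 for Myh11, −2.14 for Myl9, −0.80 for Tpm1, −2.74 for Cnn1, −0.81 for Cnn2 and −1.41 for Tagln. At day 4 they were −2.93 for Acta2, −4.04 for Actg2, −3.67 for Acta1, −3.03 for Myh11, −3.18 for Myl9, −1.07 for Tpm1, −1.01 for Tpm2, −4.43 for Cnn1, −0.98 for Cnn2 and −2.47 for Tagln. At day 7 they were −2.98 for Acta2, −4.07 for Actg2, −4.11 for Acta1, −3.41 for Myh11, −3.10 for Myl9, −1.14 for Tpm1, −1.14 for Tpm2, −4.27 for Cnn1, −1.10 for Cnn2 and −2.52 for Tagln. For Acta1 and Cnn1 at days 4 and 7 the 2 changes had opposite signs and each passed its own test. In colon, Cnn2 differed between caMEK1 and caMKK6 mCherry cells by 1.85. Groups of 2 or 3 libraries were too small for the search for a single outlying library.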

How the results depend on the processing

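All 10 genes stayed called lower at each day of caMEK1 under every alternative run, and no gene's direction turned while it was called. The number of members called moved by more than 1.5 times as follows. In caMKK6 MEFs it was 3 at day 2 against no doxycycline, but 1 with median scaling, 5 with the replicate block within genotype and 0 without the 5 libraries holding the Xenopus transgene. At day 4 it was 3, but 6 with median scaling, 5 with voom and 6 with that block, and at day 7 it was 2, but 5 with that block and 1 without the 5 libraries. For day 4 against day 2 it was 7, but 2 with no filter and 2 without the 5 libraries, and for day 7 against day 4 it was 0, but 1 with that block. In caMEK1 MEFs it was 0 for day 4 against day 2, but 1 with quantile normalization and 1 with that block, and 0 for day 7 against day 4, but 2 with that block. In liver caMEK1 GFP cells it was 0, but 1 with median scaling and 1 with quantile normalization. In colon it was 1 for caMKK6 against Control mCherry cells, but 0 with no filter and 0 with voom; 2 for caMEK1 mCherry against GFP cells, but 1 with a pseudocount of 0.1; 0 for caMKK6 mCherry against GFP cells, but 2 with the animal block; and 1 between the kinases, but 2 with voom and 2 with the animal block. The cause of these moves was not tested, except that fewer libraries and stricter adjustment over more genes come with leaving libraries out and with no filter. With a plain block by replicate number, limma called Tpm1 higher at day 4 of caMKK6 (0.41, adjusted p = 0.034). That block also called Tpm2 higher for day 4 against day 2 of caMKK6 (0.46, adjusted p = 0.02). Pairing by replicate number or animal changed no call other than those given here and in the results.

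With 1 library left out, the counts ranged over 0 to 3, 2 to 6 and 2 to 3 at days 2, 4 and 7 of caMKK6, 2 to 8 for its day 4 against day 2, 0 to 1 for day 4 against day 2 of caMEK1, and 8 to 9 for the difference between kinases at day 2. In liver they were 0 to 1 for mCherry against GFP in either genotype, for caMEK1 GFP cells and between the kinases. In colon they were 0 to 1 for caMKK6 against Control, 0 to 2 and 0 to 1 for mCherry against GFP in caMEK1 and caMKK6 mice, and 1 to 2 between the kinases. Where an arm kept 1 library, it was assumed to vary like the others. The block within genotype gives no value between untreated genotypes, which lie between its blocks.

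Over all genes, the number called at days 2, 4 and 7 of caMKK6 was 4443, 5088 and 4629, but 1477, 2376 and 2668 without the 5 libraries, and 1838 for its day 4 against day 2, but 394 without them and 3090 with the replicate block within genotype. For day 7 against day 4 of caMEK1 it was 409, but 240 with a pseudocount of 0.1, 655 with the replicate block, 1510 with the block within genotype and 110 to 535 with 1 library left out. For day 7 against day 4 of caMKK6 it was 340, but 583 and 1509 with those blocks, 70 without the 5 libraries and 48 to 990 with 1 left out. For liver mCherry against GFP cells it was 444 in caMKK6 mice, but 162 with median scaling, 199 with quantile normalization, 954 with the animal block and 242 to 1471 with 1 library left out, and 488 in caMEK1 mice, but 1277 with the animal block and 175 to 800 with 1 left out. In liver mCherry cells, 75.7% of the genes called for caMKK6 against Control were higher, but 39.4% with median scaling, so the share printed beside Tpm1 there rests on the scaling. The same share was 36.6% at day 2 of caMKK6 MEFs, but 52.9% with median scaling, 38.2% at day 4, but 53.9%, and 41.1% at day 7, but 51.4%. For the differences between kinases it was 62.5%, 59.3% and 61.6% at days 2, 4 and 7, but 45.9%, 43.2% and 44.5%.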
